A study of Mus musculus with 14 samples.

Results

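The genes of the mitochondrial ribosome were followed in cultured adult mouse neural stem and progenitor cells (NSPCs). They were taken as every protein-coding gene with a symbol of the form Mrpl or Mrps plus a number and an optional letter. The rule found 78 genes among 21899 protein-coding genes and 53700 genes in all, and used no measured value. By their place in the known structure of the mammalian particle, 51 belong to the large subunit and 26 to the small subunit. Mrps36 keeps a ribosomal symbol but is known as a component of the oxoglutarate dehydrogenase complex, and it was counted apart.

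Mitochondria carry their own ribosomes, which translate the few respiratory chain subunits encoded in mitochondrial DNA. Their RNA comes from mitochondrial DNA, but all their proteins are encoded in the nucleus, made in the cytosol and imported. Some descend from bacterial ribosomal proteins and others are found only in mitochondria. Of the 77 ribosomal members, 48 were classed as bacterial homologs and 29 as specific to mitochondria.

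The data were poly-A selected, stranded RNA-seq libraries from C57BL/6 cells, 14 in 4 groups. Quiescent cells had received BMP4 (n = 4) and were set against proliferating cells kept in FGF and EGF (n = 4). Yme1l KO cells had received a Cre-GFP adeno-associated virus (n = 3) and were set against cells given a GFP adeno-associated virus (n = 3), both kept in FGF and EGF. YME1L is a protease of the mitochondrial inner membrane, and the series asks how it bears on the self-renewal of adult neural stem cells. The labels call the source of every library, the Yme1l KO included, a wild-type mouse, and they name neither a floxed allele nor the promoter of Cre. They do not say whether replicates were separate animals or cultures, so p-values measure the spread between these libraries, which may be technical.

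Libraries held 6475092 to 10320727 estimated reads. Yme1l1, the gene that encodes YME1L, had 25.7, 25.6 and 22.9 CPM (normalised counts, scaled per library) in the Yme1l KO libraries, against 135, 124 and 121 CPM in the GFP control libraries. It had 3.91 to 11.1 CPM in the quiescent libraries and 2.18 to 4.77 CPM in the proliferating libraries, so levels were not comparable across the deposited tables. These were quantified separately, and whether that or the libraries themselves made the gap was not tested. Quiescent replicate 2 stood apart from its group on the second principal component and in the relation of its values to GC content (r = -0.37 across genes), and Yme1l KO replicate 3 stood apart on the first. The 10 NSPC markers summed to 3684 to 4022 CPM in quiescent and 4689 to 5013 CPM in proliferating libraries, and to 4589 to 4904 CPM in Yme1l KO and 5454 to 5626 CPM in GFP control libraries. The 5 proliferation markers summed to 91.3 to 110 CPM in quiescent and 606 to 617 CPM in proliferating libraries. Their sum was 694 to 1109 CPM in Yme1l KO and 2010 to 2052 CPM in GFP control libraries, and all 5 were lower in both comparisons, as were 18.4% of the genes tested in both. What part of the results below moved with these markers was not tested. The 6 oligodendrocyte markers summed to 208 to 229 CPM in quiescent and 223 to 244 CPM in proliferating libraries, and to 103 to 126 CPM in Yme1l KO and 97.6 to 102 CPM in GFP control libraries, with Mog at 0 in every group. Of the 6 microglia markers, Cx3cr1 and C1qa were at 0 in all 4 groups, and the sum was at most 6.47 CPM in any library. Tmem119 averaged 4.06 CPM in quiescent and 0.105 CPM in proliferating libraries. The 6 neuron markers summed to at most 19.9 CPM and the 6 vessel markers to at most 16.2 CPM per library. Kdr, a vessel marker, was higher in quiescent cells and Acta2 lower. The 4 ependyma markers summed to 49.5 to 58.1 CPM in quiescent and 71.6 to 78.1 CPM in proliferating libraries. Their sum was 19.1 to 26.3 CPM in Yme1l KO and 15.3 to 19.8 CPM in GFP control libraries.

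These promoters are printed because their genes had the deepest fall in quiescent cells (Mrps27), the deepest fall in Yme1l KO cells (Mrps18b) and the largest rise in quiescent cells (Mrps21). Each runs 5′ to 3′ on the strand of the gene, from 250 bases before to 50 bases after the RefSeq start, on build GRCm38.p6. Capitals mark matches, on either strand, to GCATGCGC (NRF1), CCGGAAG (ETS factors) or AAGATGGC (YY1). The Mrps27 window lies at chr13:99344536-99344835 on the plus strand, Mrps18b at chr17:35916391-35916690 on the minus strand and Mrps21 at chr3:95871465-95871764 on the minus strand.
Mrps27: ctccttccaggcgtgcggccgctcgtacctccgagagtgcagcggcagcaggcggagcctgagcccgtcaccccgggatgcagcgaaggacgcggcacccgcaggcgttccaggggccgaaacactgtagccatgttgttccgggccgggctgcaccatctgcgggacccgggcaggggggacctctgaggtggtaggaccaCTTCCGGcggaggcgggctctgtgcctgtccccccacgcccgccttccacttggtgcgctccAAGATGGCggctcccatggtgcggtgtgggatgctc
Mrps18b: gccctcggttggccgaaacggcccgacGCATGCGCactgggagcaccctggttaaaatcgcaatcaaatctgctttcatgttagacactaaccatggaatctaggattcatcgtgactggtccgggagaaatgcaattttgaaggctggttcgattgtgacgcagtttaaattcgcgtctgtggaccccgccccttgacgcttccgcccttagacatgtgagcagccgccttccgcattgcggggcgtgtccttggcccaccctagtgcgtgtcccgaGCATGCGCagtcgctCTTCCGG
Mrps21: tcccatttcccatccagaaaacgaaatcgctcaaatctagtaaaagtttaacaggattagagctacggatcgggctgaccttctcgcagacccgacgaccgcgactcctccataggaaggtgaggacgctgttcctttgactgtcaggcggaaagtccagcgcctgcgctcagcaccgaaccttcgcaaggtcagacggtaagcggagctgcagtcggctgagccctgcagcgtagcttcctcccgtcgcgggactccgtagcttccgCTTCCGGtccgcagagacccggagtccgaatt
The Mrps27 window holds an ETS match on the opposite strand at -48 and a YY1 match at 15, counted from the start site to the first base of the match. The Mrps18b window holds an NRF1 match at -223, another at 29 and an opposite-strand ETS match at 44. In the Mrps21 window the only match is an opposite-strand ETS sequence at 19.

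RefSeq promoters were found for 69 of the 78 genes, 75 promoters in all because some genes have several starts. The ETS letters stood in 34.7% of these promoters, against 8.86% of 32851 mouse promoters and 17.4% of the promoters of genes tested in these cells. The YY1 letters stood in 16%, against 4.41% of the promoters of tested genes, and the NRF1 letters in 10.7%, against 5.26%. An E-box (CACGTG) stood in 9.33%, against 10.1%, a TATA sequence (TATAAA) in 6.67%, against 6.53%, and CCAAT in 40%, against 37.8%. These shares describe letters in a window and say nothing of binding. Genes with and without the ETS letters had median log2 fold changes of -0.40 and -0.37 in quiescent over proliferating cells, and of -0.24 and -0.23 in Yme1l KO over GFP control cells. For the NRF1 letters the medians with and without were -0.41 and -0.37 in quiescent over proliferating cells, and -0.25 and -0.23 in Yme1l KO over GFP control cells. For the YY1 letters they were -0.32 and -0.39 in the quiescent comparison, and -0.26 and -0.24 in the Yme1l KO comparison. For the TATA letters, held by 5 genes, they were -0.21 and -0.38 in the quiescent comparison, and -0.03 and -0.24 in the Yme1l KO comparison. For the E-box, also held by 5 genes, they were -0.37 and -0.38, then -0.24 and -0.24, and for CCAAT -0.34 and -0.42, then -0.24 and -0.24, in the same order. None of these differences was tested.

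The genes were scattered over 17 chromosomes, with 11 on chromosome 11. For 32 of the 78 (41%) the start of another protein-coding gene lay on the opposite strand within 1000 bases, as for 10.6% of all protein-coding genes. Mrpl46 and Mrps11, both members, start 412 bases apart. Mrpl36 starts 29 bases from Ndufs6, a subunit of respiratory complex I, and Mrps12 starts 172 bases from Sars2, the mitochondrial seryl-tRNA synthetase. Mrps27 starts 81 bases from Ptcd2, another mitochondrial RNA-binding protein. Among 28 neighbours tested that are not members, 17 were lower and 3 higher in quiescent than in proliferating cells, with a median log2 fold change of -0.33. These were 60.7% lower and 10.7% higher, beside 35.5% lower and 29.9% higher among all genes tested at an adjusted p under 0.05. In Yme1l KO cells 13 of 29 (44.8%) were lower and 6 (20.7%) higher than in GFP control cells, with a median of -0.24, beside 26.2% lower and 25.4% higher among all genes tested. Across these pairs the fold changes of gene and neighbour had a Pearson r of -0.17 in the quiescent comparison and 0.13 in the Yme1l KO comparison, as a description.

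Levels were compared between genes in TPM, which scale estimated transcripts to a fixed total per library and allow for transcript length. The median gene had 72.3 TPM in quiescent, 96.0 TPM in proliferating, 60.8 TPM in Yme1l KO and 69.0 TPM in GFP control libraries. The order of the most abundant genes differed between groups, and the leading pair differed by less than the SD of the higher gene in proliferating and in Yme1l KO libraries. Mrps21 of the small subunit had the highest mean in quiescent libraries (358 ± 19.9 TPM) and in Yme1l KO libraries (192 ± 10.6 TPM). Mrpl17, a large subunit protein of bacterial descent, had the highest mean in proliferating libraries, before Mrps6. In GFP control libraries it was Mrpl42, named after its values were seen, with 242 ± 4.07 TPM (SD, n = 3). Mrpl17 had 317 ± 26.5 TPM in quiescent and 466 ± 26.7 TPM in proliferating libraries (SD, n = 4 each). It had 189 ± 13.96 TPM in Yme1l KO and 223 ± 8.2 TPM in GFP control libraries (SD, n = 3 each). Mrpl1, of the mobile stalk of the large subunit, had the lowest mean in each of the 4 groups, with 1.82 ± 0.753 TPM in quiescent and 2.38 ± 0.697 TPM in proliferating libraries. It had 9.17 ± 1.05 TPM in Yme1l KO and 12.1 ± 0.221 TPM in GFP control libraries. Next lowest was Mrpl47 in quiescent and proliferating libraries, but Mrps30 in Yme1l KO and GFP control libraries. The highest gene stood 196-fold above the lowest in proliferating libraries, and 20.01-fold in GFP control libraries. The gap between the tables moved with base composition: the log2 ratio of GFP control to proliferating TPM had a Pearson r of -0.62 with GC content across the 78 genes, and of -0.65 across 13561 genes.

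All 78 genes together made up less of the transcript pool in quiescent cells. Their summed TPM was 6426 (6312 to 6523) in quiescent and 8377 (8313 to 8439) in proliferating libraries, and the 2 ranges did not overlap. As a share of all TPM this was 0.643% ± 0.00919 in quiescent and 0.838% ± 0.00536 in proliferating libraries (SD, n = 4 each), a mean 23.3% lower. In Yme1l KO libraries the sum was 5203 (5063 to 5383), against 6233 (6105 to 6347) in GFP control libraries, again with no overlap. The share was 0.520% ± 0.0164 in Yme1l KO and 0.623% ± 0.0122 in GFP control libraries (SD, n = 3 each), a mean 16.5% lower. Mean TPM per gene in the large subunit over that in the small subunit was 1.01 in both quiescent and proliferating libraries. That ratio was 1.09 in Yme1l KO and 1.11 in GFP control libraries. In bulk RNA, fewer cells of a type and less RNA per cell cannot be told apart.

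**Figure D1:**
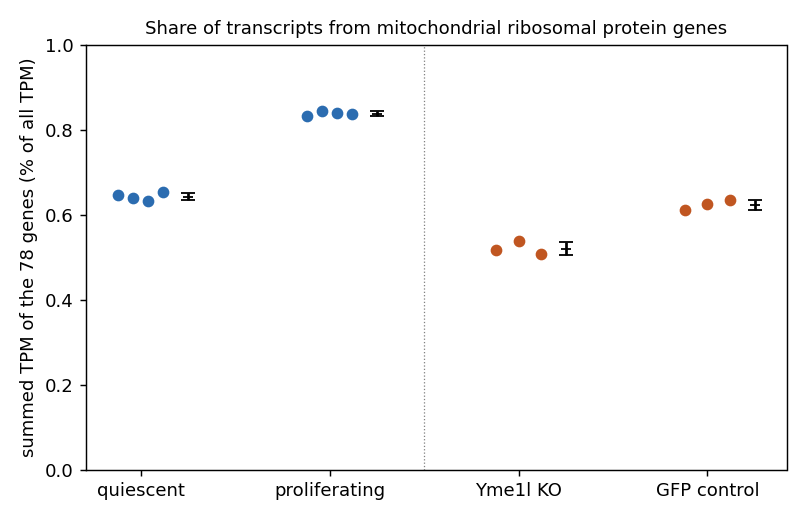
Summed TPM of the 78 mitochondrial ribosomal protein genes as a percent of all TPM (vertical axis) in each library (points), with the mean and SD beside them, for the 4 groups on the horizontal axis. The quiescent mean of 0.643% lies below the proliferating mean of 0.838%, and the Yme1l KO mean of 0.520% lies below the GFP control mean of 0.623%. The dotted line parts tables that were quantified separately.

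The comparison of quiescent with proliferating cells asks how the genes differ between BMP4 and growth factor conditions. Of the 78 genes, 61 were lower and 2 higher in quiescent cells at an adjusted p under 0.05 (edgeR quasi-likelihood test), and 15 were not called. Among all 12245 genes tested, 65.4% were called in either direction, 35.5% lower and 29.9% higher, so the members' 78.2% lower stood above that background. With library size alone as scaling, 73 members were lower and none higher, against 5219 lower and 2823 higher among all genes. Without quiescent replicate 2 there were 48 lower and 3 higher. The median log2 fold change of the members was -0.39, a 1.31-fold lower level, against -0.01 over all genes. Single genes ranged from -1.12 to 0.24, 75 of 78 were below 0, and 3 were at least 2-fold lower. In 57 genes every quiescent library was below every proliferating library, as in 33.2% of all genes tested, and in 1 every one was above, as in 26.4%. In the authors' deposited table, members called lower numbered 41 and members called higher 2, against 23.1% and 22.8% of its genes.

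**Figure D2:**
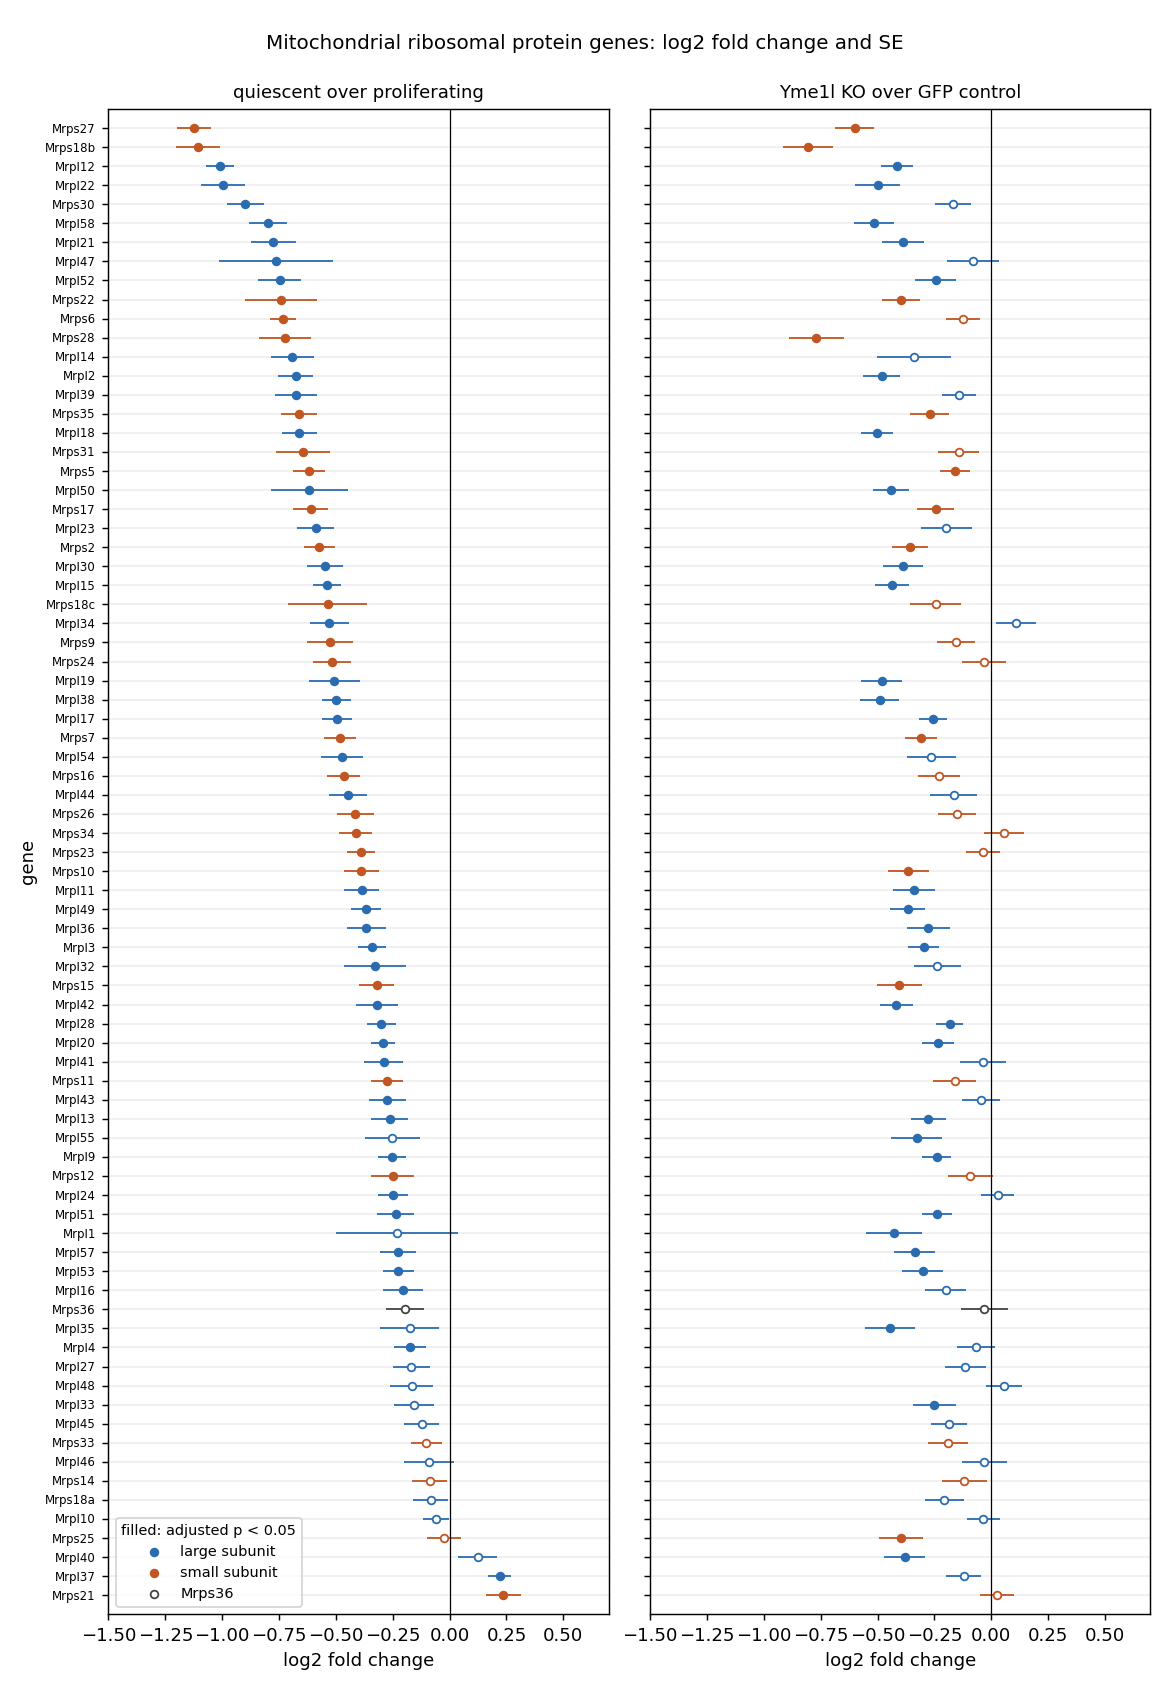
Log2 fold change (horizontal axes) with its SE for each of the 78 genes (vertical axis), quiescent over proliferating on the left and Yme1l KO over GFP control on the right, ordered by the left panel. Filled points passed an adjusted p of 0.05; the left panel has 61 filled points below 0 and 2 above, and the right panel has 42 below 0 and none above.

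In the small subunit 22 of 26 genes (84.6%) were lower and 1 higher in quiescent cells, with a median log2 fold change of -0.50. Of all genes tested 35.5% were lower and 29.9% higher. The deepest fall was that of Mrps27 (chr13:99481294-99552070, GRCm39), a mitochondria-specific protein of the pentatricopeptide repeat family that binds RNA. It had 23.9, 25.9, 25.7 and 22.5 CPM in the quiescent libraries, against 55.3, 49.9, 53.5 and 55.2 CPM in the proliferating libraries. The groups were far apart, and the change on the log2 scale was -1.12 (SE 0.07, adjusted p = 1.84e-09). Mrps18b (chr17:36221271-36227281), one of 3 mammalian relatives of bacterial S18, had 18.8, 19.04, 15.3 and 17.3 CPM in the quiescent libraries, against 37.96, 41.2, 34.2 and 38.7 CPM in the proliferating libraries. Each quiescent value was well below each proliferating one, with a log2 fold change of -1.11 (SE 0.10, adjusted p = 4.29e-08). Mrps6, a relative of bacterial S6 and among the most abundant members, had 109, 98.8, 101 and 114 CPM in the quiescent libraries, against 166, 178, 176 and 182 CPM in the proliferating libraries. Its groups did not overlap either, and the log2 ratio came to -0.73 (SE 0.06, adjusted p = 9.91e-09); its reads are uncertain, since it overlaps Slc5a3 on the same strand. Mrps28, a relative of bacterial S1, had 20.2, 15.2, 14.97 and 18.001 CPM in the quiescent libraries, against 26.4, 31.5, 28.8 and 26.1 CPM in the proliferating libraries, with a log2 fold change of -0.72 (SE 0.11, adjusted p = 3.66e-05). In Mrps22, a mitochondria-specific protein, the values were low: 7.27, 9.23, 10.6 and 7.12 CPM in the quiescent libraries, against 14.97, 15.9, 11.5 and 14.8 CPM in the proliferating libraries. They parted the groups all the same, with a log2 fold change of -0.74 (SE 0.16, adjusted p = 0.000741).

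Of the 3 relatives of S18, Mrps18b and Mrps18c passed the test and Mrps18a did not. Mrps18c, which takes the place of S18 in the small subunit, had 9.54, 10.5, 8.46 and 7.26 CPM in the quiescent libraries, against 9.81, 13.7, 16.5 and 12.1 CPM in the proliferating libraries. These groups overlapped, and the change on the log2 scale was -0.54 (SE 0.17, adjusted p = 0.0136); it was no longer called without quiescent replicate 4 (adjusted p = 0.0686), without proliferating replicate 4 (adjusted p = 0.0631), with the replicate number as a block (adjusted p = 0.0912) or with block and GC trend removal together (adjusted p = 0.0681). Mrps18a, which sits in the large subunit despite its symbol, had 61.9, 49.9, 51.4 and 54.3 CPM in the quiescent libraries, against 56.6, 52.9, 60.6 and 59.8 CPM in the proliferating libraries. Its groups overlapped, the log2 ratio came to -0.08 (SE 0.08, adjusted p = 0.346), and the sign turned without quiescent replicate 2 (0.043) and without quiescent replicate 3 (0.000447). Mrps21, a relative of bacterial S21, was the small subunit gene that rose: it had 67.1, 53.95, 61.2 and 67.96 CPM in the quiescent libraries, against 55.7, 50.01, 54.9 and 51.3 CPM in the proliferating libraries. The groups overlapped, and the change on the log2 scale was 0.24 (SE 0.08, adjusted p = 0.0135).

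In the large subunit 39 of 51 genes (76.5%) were lower and 1 higher in quiescent cells, with a median log2 fold change of -0.33. Of all genes tested 35.5% were lower and 29.9% higher. Mrpl12 (chr11:120375439-120379891), of the stalk that recruits translation factors and a reported partner of the mitochondrial RNA polymerase, had 76.9, 67.7, 70.3 and 74.7 CPM in the quiescent libraries, against 145, 153, 151 and 134 CPM in the proliferating libraries. The quiescent values were close to each other and far below the rest, with a log2 fold change of -1.01 (SE 0.06, adjusted p = 4.51e-10). Mrpl22, which lines the peptide exit tunnel, had 22.3, 18.3, 18.2 and 17.2 CPM in the quiescent libraries, against 37.4, 41.5, 36.5 and 35.9 CPM in the proliferating libraries. No value overlapped, and the log2 ratio came to -0.996 (SE 0.10, adjusted p = 1.6e-07). Mrps30, a large subunit protein named before its place was known, had 23.3, 21.02, 26.7 and 24.98 CPM in the quiescent libraries, against 43.9, 45.3, 43.7 and 45.5 CPM in the proliferating libraries. That gave a log2 fold change of -0.90 (SE 0.08, adjusted p = 8.29e-08), again without overlap. Mrpl58, a peptidyl-tRNA hydrolase that frees stalled ribosomes, had 29.6, 23.4, 25.4 and 25.4 CPM in the quiescent libraries, against 47.98, 45.04, 44.05 and 42.5 CPM in the proliferating libraries. Its groups stood apart as well, at -0.80 (SE 0.08, adjusted p = 4.32e-07).

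A further 3 large subunit genes were among the 12 deepest called falls of genes with at least 5 CPM in quiescent cells, each with no overlap of the groups. Mrpl21, a relative of bacterial L21, had a log2 fold change of -0.77 (SE 0.10, adjusted p = 4.83e-06). Mrpl52, specific to mitochondria, stood at -0.75 (SE 0.10, adjusted p = 4.25e-06). Mrpl14, which lies at the interface of the subunits, stood at -0.69 (SE 0.10, adjusted p = 1.1e-05). Against these, Mrpl37, another mitochondria-specific protein, rose: it had 149, 139, 137 and 138 CPM in the quiescent libraries, against 119, 127, 121 and 117 CPM in the proliferating libraries. The groups did not overlap, and the change on the log2 scale was 0.22 (SE 0.05, adjusted p = 0.000982). With library size alone as scaling neither rise was called, at 0.08 for Mrpl37 (adjusted p = 0.113) and 0.10 for Mrps21 (adjusted p = 0.256). Mrpl32, whose maturation by the m-AAA protease, a relative of YME1L, is known to gate ribosome assembly, had 10.5, 11.7, 11.9 and 11.02 CPM in the quiescent libraries, against 11.4, 14.6, 14.2 and 16.5 CPM in the proliferating libraries. The groups overlapped, with a log2 fold change of -0.33 (SE 0.14, adjusted p = 0.0445); it was not called in 12 of the 19 alternatives run, among them those without any one quiescent replicate (adjusted p = 0.101 to 0.161) and without proliferating replicate 2, 4 or 5 (0.0776 to 0.149).

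By descent, 39 of 48 bacterial homologs were lower in quiescent cells, with a median log2 fold change of -0.43. Of the mitochondria-specific proteins 22 of 29 were lower, with a median of -0.39. These were 81.2% of the homologs and 75.9% of the mitochondria-specific proteins, beside 35.5% of all genes tested. Mrps36, outside the ribosome, had 22.5, 24.99, 25.7 and 24.98 CPM in the quiescent libraries, against 27.2, 27.6, 27.8 and 29.96 CPM in the proliferating libraries. These groups did not overlap, but its log2 fold change of -0.20 (SE 0.08, adjusted p = 0.0523) missed the threshold. Across the 78 genes the fold change had a Pearson r of -0.04 with GC content, -0.11 with transcript length and 0.14 with mean log2 TPM, as a description.

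Setting Yme1l KO against GFP control asks what loss of the protease changes in cells kept in growth factors. Only the Yme1l KO cells had received Cre, so effects of Cre and of loss of the protease cannot be told apart. Of the 78 genes, 42 were lower in Yme1l KO cells, none was higher, and 36 were not called. The background was 51.6% called in either direction, 26.2% lower and 25.4% higher among 12625 genes, against 53.8% lower among the members. None was called higher by DESeq2 or limma either, and 0 were higher at an unadjusted p under 0.05 in edgeR. The median log2 fold change was -0.24, a 1.18-fold lower level, against 0.00 over all genes. Single genes ranged from -0.81 to 0.11, 73 of 78 were below 0, and none was 2-fold lower. In 51 genes every Yme1l KO library was below every GFP control library, as in 30.8% of all genes tested, and in 1 every one was above, as in 30.5%. Without Yme1l KO replicate 3, 43 were lower. The authors' deposited table had 26 members lower and none higher, against 17.5% and 15.5% of its genes.

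In the small subunit 12 of 26 genes (46.2%) were lower in Yme1l KO cells, beside 26.2% of all genes tested, with a median log2 fold change of -0.21. Mrps18b fell deepest, with 17.7, 22.4 and 16.2 CPM in the Yme1l KO libraries, against 34.9, 32.4 and 31.4 CPM in the GFP control libraries. The groups were far apart, with a log2 fold change of -0.81 (SE 0.11, adjusted p = 3.43e-05). Mrps28 had 12.1, 13.1 and 10.5 CPM in the Yme1l KO libraries, against 19.1, 19.3 and 22.5 CPM in the GFP control libraries. Again no value overlapped, and the log2 ratio came to -0.77 (SE 0.12, adjusted p = 9.99e-05). For Mrps27 the values were 26.1, 28.7 and 23.2 CPM in the Yme1l KO libraries, against 39.2, 39.3 and 39.9 CPM in the GFP control libraries. The control values were nearly alike, and the change on the log2 scale was -0.60 (SE 0.09, adjusted p = 5.36e-05). Mrps18c had a log2 fold change of -0.24 (SE 0.11, adjusted p = 0.0845) and Mrps18a one of -0.21 (SE 0.09, adjusted p = 0.0599), so neither passed. Of the 17 alternatives run, Mrps18a was called lower in 5 (adjusted p down to 0.0227). Mrps18c was called lower in 2 of them (adjusted p = 0.0304 and 0.0316). Mrps21 stood at 0.03 (SE 0.08, adjusted p = 0.801), and Mrps36 at -0.03 (SE 0.10, adjusted p = 0.817).

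In the large subunit 30 of 51 genes (58.8%) were lower in Yme1l KO cells, beside 26.2% of all genes tested, with a median log2 fold change of -0.26. Mrpl58 had 21.3, 24.6 and 24.7 CPM in the Yme1l KO libraries, against 31.8, 35.1 and 34.2 CPM in the GFP control libraries. The groups did not overlap, and the log2 ratio came to -0.52 (SE 0.09, adjusted p = 0.000226). Mrpl18, known also for its part in the import of 5S ribosomal RNA, had 40.7, 43.6 and 37.9 CPM in the Yme1l KO libraries, against 58.02, 56.3 and 58.8 CPM in the GFP control libraries. It stood apart in every library, at -0.50 (SE 0.07, adjusted p = 4.8e-05). Mrpl22 had 19.01, 19.5 and 17.1 CPM in the Yme1l KO libraries, against 23.7, 28.2 and 26.8 CPM in the GFP control libraries, which gave -0.50 (SE 0.10, adjusted p = 0.000728). Mrpl12 had 64.3, 69.4 and 58.6 CPM in the Yme1l KO libraries, against 84.6, 81.1 and 90.6 CPM in the GFP control libraries. Its log2 fold change of -0.41 (SE 0.07, adjusted p = 0.000198) was called, but it was not among the 12 deepest.

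Another 6 large subunit genes completed the 12 deepest called falls in Yme1l KO cells, each without overlap of the groups. Mrpl38, of the central protuberance, had a log2 fold change of -0.49 (SE 0.09, adjusted p = 0.000255). Mrpl2, near the peptidyl transferase centre, stood at -0.48 (SE 0.08, adjusted p = 0.000226). Mrpl50, specific to mitochondria, stood at -0.44 (SE 0.08, adjusted p = 0.000347), and Mrpl15, a relative of bacterial L15, at -0.44 (SE 0.07, adjusted p = 0.000215). Mrpl19 stood at -0.48 (SE 0.09, adjusted p = 0.000433) on counts, but at -0.05 (adjusted p = 0.897) by limma on log2(TPM + 1) and -0.13 (adjusted p = 0.744) on counts scaled from TPM. Mrpl35 stood at -0.45 (SE 0.11, adjusted p = 0.00332), but missed the threshold on those scales (adjusted p = 0.108 and 0.107). Mrpl32 had 17.7, 22.8 and 20.9 CPM in the Yme1l KO libraries, against 25.3, 24.3 and 22.8 CPM in the GFP control libraries. Its groups overlapped, and the change on the log2 scale was -0.24 (SE 0.10, adjusted p = 0.0702). Mrpl32 was called lower in 3 of the 17 alternatives run (adjusted p = 0.0291 to 0.0418).

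**Figure D3:**
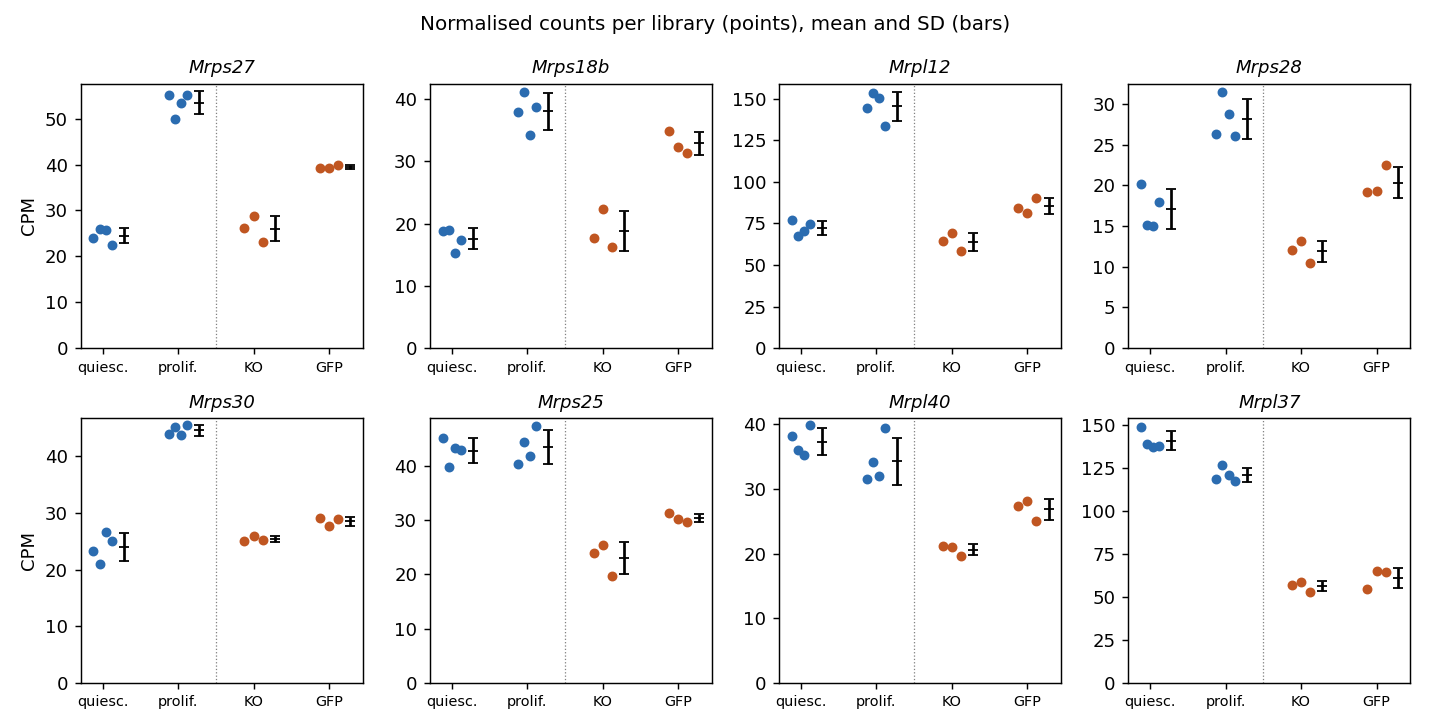
Normalised CPM (vertical axes) of 8 genes in each library (points), with the mean and SD beside them, for quiescent, proliferating, Yme1l KO and GFP control libraries on the horizontal axes. Mrps27, Mrps18b, Mrpl12 and Mrps28 are lower in quiescent than in proliferating and in Yme1l KO than in GFP control libraries, while Mrpl40 and Mrps25 part Yme1l KO from GFP control libraries but overlap between quiescent and proliferating libraries. The dotted line parts tables that were quantified separately.

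The 2 comparisons share no library. Lower in both were 36 of the 78 genes, as were 18.4% of the 11477 genes tested in both. A further 25 were called lower only in quiescent cells and 6 only in Yme1l KO cells, 2 were higher in quiescent cells and not called in Yme1l KO cells, and 9 were called in neither. Those lower in both by the widest margin were Mrps18b, Mrps28, Mrps27, Mrpl58 and Mrpl18. With each comparison fitted alone, the log2 fold change was more negative in the quiescent comparison for 59 of 78 genes (75.6%), beside 54.9% of all genes tested in both. In 1 fit over the 14 libraries this was so for 50 of 78 (64.1%), beside 50.8% of all genes. Over all genes tested the quartiles were wider in the quiescent comparison (-0.49 and 0.47) than in the Yme1l KO comparison (-0.26 and 0.27). Most members fell in both, unlike genes at large, so these shares do not show a stronger fall particular to the members. Across the 78 genes the fold changes of the comparisons had a Pearson r of 0.46 and a Spearman rho of 0.39, beside 0.49 and 0.50 across all genes tested in both.

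**Figure D4:**
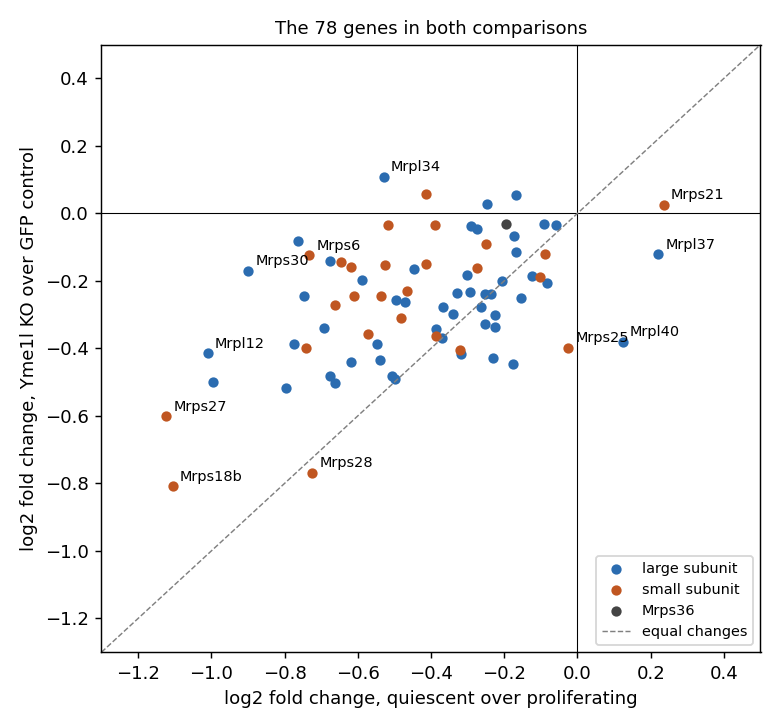
Log2 fold change of each of the 78 genes in quiescent over proliferating cells (horizontal axis) and in Yme1l KO over GFP control cells (vertical axis), coloured by subunit, with the line of equal changes. Of these genes 59 lie above the line, and Mrps25, Mrpl40 and Mrpl37 lie well below it.

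The difference of the effects was tested as the Yme1l KO change minus the quiescence change in 1 fit over the 14 libraries. By that test 15 of 78 genes were higher, which means a change less negative in Yme1l KO than in quiescent cells, and 3 were lower. Among 13580 genes tested 21% were called higher and 18% lower, so the members' 19.2% higher was near the background and their 3.85% lower was under it. The count depended on scaling. It was 8 higher and 4 lower with size factors as in DESeq2, where 2229 of the 13580 genes were called higher and 3094 lower. With library size alone it was 32 higher and 2 lower, where 4173 of all genes were called higher and 1732 lower. How the members stood against all genes thus depended on scaling too. The median difference was 0.11, against 0.01 over all genes. By subunit, 9 of 26 small subunit and 6 of 51 large subunit genes were higher, and 1 small and 2 large subunit genes lower; the subunits were not tested against each other.

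Of these 15 genes, Mrps30 differed most, by 0.68 (SE 0.13, adjusted p = 0.000209) on the log2 scale. It had 25.1, 25.9 and 25.2 CPM in the Yme1l KO libraries, against 29.1, 27.7 and 28.9 CPM in the GFP control libraries. Those groups did not overlap, yet the log2 fold change missed the threshold at -0.17 (SE 0.08, adjusted p = 0.0925), beside -0.90 in the quiescent comparison. Mrpl34, a relative of bacterial L34, differed by 0.59 (SE 0.14, adjusted p = 0.00157). It had 38.3, 35.6, 30.4 and 35.7 CPM in the quiescent libraries, against 50.4, 53.9, 53.9 and 44.1 CPM in the proliferating libraries. In the other pair it had 23.5, 25.7 and 22.97 CPM in the Yme1l KO libraries, against 21.8, 22.7 and 22.4 CPM in the GFP control libraries. Every Yme1l KO value lay above every GFP control value there, without passing the test, at 0.11 (SE 0.09, adjusted p = 0.324). Mrps6 differed by 0.56 (SE 0.10, adjusted p = 0.000158), Mrpl12 by 0.54 (SE 0.11, adjusted p = 0.000346) and Mrpl39, specific to mitochondria, by 0.49 (SE 0.13, adjusted p = 0.00462).

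The 3 genes with the opposite difference were Mrpl40, Mrps25 and Mrpl37. Mrpl40, of the central protuberance, had 21.1, 21.1 and 19.6 CPM in the Yme1l KO libraries, against 27.4, 28.1 and 25.1 CPM in the GFP control libraries. These groups did not overlap, and the log2 ratio came to -0.38 (SE 0.09, adjusted p = 0.00262). In the other pair it had 38.1, 35.97, 35.3 and 39.9 CPM in the quiescent libraries, against 31.5, 34.1, 32.01 and 39.5 CPM in the proliferating libraries. There the groups overlapped, at 0.12 (SE 0.09, adjusted p = 0.213), and the difference of the effects was -0.55 (SE 0.14, adjusted p = 0.00318). It was no longer called by limma on log2(TPM + 1) (adjusted p = 0.0800) or on counts scaled from TPM (adjusted p = 0.0606). Mrps25, a mitochondria-specific small subunit protein, had 24.003, 25.4 and 19.7 CPM in the Yme1l KO libraries, against 31.2, 30.2 and 29.7 CPM in the GFP control libraries. Its log2 fold change was -0.40 (SE 0.10, adjusted p = 0.00332), with no overlap, against -0.02 (SE 0.07, adjusted p = 0.781) in quiescent over proliferating cells. The difference was -0.42 (SE 0.14, adjusted p = 0.0181), and it lost its call without Yme1l KO replicate 3 (-0.31, adjusted p = 0.0571), with library size alone (-0.27, adjusted p = 0.0921) and by limma on log2(TPM + 1) (-0.61, adjusted p = 0.0554). Mrpl37 differed by -0.39 (SE 0.10, adjusted p = 0.00337).

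Genes that work with the ribosome were read from the same fits. The 5 ribosomal proteins with other symbols (Dap3, Ptcd3, Aurkaip1, Chchd1 and Gadd45gip1) were all lower in quiescent cells, beside 35.5% of all genes tested. Aurkaip1 had 68.1 ± 1.13 CPM in Yme1l KO and 57.02 ± 0.736 CPM in GFP control libraries (SD, n = 3 each), a rise of 0.26 (SE 0.06, adjusted p = 0.00227), while the other 4 fell. Of all genes tested in that comparison 26.2% were lower and 25.4% higher. Of 26 assembly factors, 17 were lower and 2 higher in quiescent cells, with a median log2 fold change of -0.51. Their 65.4% lower stood beside 35.5% over all genes tested. In Yme1l KO cells 7 were lower and 1 higher, with a median of -0.11, and the 26.9% lower was near the 26.2% over all genes tested. Rcc1l, an assembly factor, stood at -1.22 ± 0.11 in quiescent and -0.63 ± 0.12 in Yme1l KO cells (log2 fold change ± SE). Noa1, a GTPase, stood at -0.85 ± 0.09 in quiescent and -0.48 ± 0.09 in Yme1l KO cells. Mpv17l2 rose in both, by 0.61 (SE 0.09, adjusted p = 1.06e-05) in quiescent and by 0.40 (SE 0.12, adjusted p = 0.0112) in Yme1l KO cells.

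Of the 15 translation factors tested, 4 were lower and 2 higher in quiescent cells, with a median log2 fold change of -0.15, and the 26.7% lower was under the 35.5% over all genes tested. In Yme1l KO cells 6 (40%) were lower and none higher, with a median of -0.13, beside 26.2% lower over all genes tested. Tufm, the elongation factor that brings aminoacyl-tRNA to the ribosome, stood at -0.68 (SE 0.06, adjusted p = 3.14e-08) in quiescent and -0.30 (SE 0.07, adjusted p = 0.00215) in Yme1l KO cells. Tsfm, its exchange factor, stood at -0.71 (SE 0.09, adjusted p = 5.8e-06) in quiescent and -0.44 (SE 0.10, adjusted p = 0.00244) in Yme1l KO cells. Oxa1l, which inserts new proteins into the inner membrane, fell by 0.35 on the log2 scale in quiescent cells (adjusted p = 0.00015) and stood at -0.05 (SE 0.06, adjusted p = 0.543) in Yme1l KO cells. The 2 translation factors higher in quiescent cells were Mtif2, at low counts, and Mtif3. They stood at 0.93 (SE 0.33, adjusted p = 0.0219) and 0.37 (SE 0.12, adjusted p = 0.0125). Of the genes for upkeep and transcription of mitochondrial DNA, 4 of 7 tested (57.1%) were lower and 1 higher in quiescent cells, and 3 of 9 (33.3%) lower in Yme1l KO cells, beside 35.5% and 26.2% lower over all genes in these comparisons; lists this short say little against those shares. Tfam, which packs and transcribes that DNA, stood at -0.64 (SE 0.13, adjusted p = 0.000431) in quiescent and -0.36 (SE 0.08, adjusted p = 0.00128) in Yme1l KO cells. The gene higher in quiescent cells was Mterf2, at low counts, at 1.37 (SE 0.33, adjusted p = 0.00167).

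The 2 ribosomal RNAs of the particle went the other way. mt-Rnr1, the small subunit RNA, had 25.9 ± 2.63 CPM in quiescent and 15.6 ± 2.99 CPM in proliferating libraries (SD, n = 4 each), a log2 fold change of 0.73 (SE 0.13, adjusted p = 0.00014). It had 79.8 ± 14.6 CPM in Yme1l KO and 56.7 ± 0.743 CPM in GFP control libraries (SD, n = 3 each), a log2 fold change of 0.49 (SE 0.11, adjusted p = 0.00411). mt-Rnr2, the large subunit RNA, had 30.3 ± 10.9 CPM in quiescent and 16.4 ± 4.96 CPM in proliferating libraries (SD, n = 4 each). Those groups overlapped, at 16.3 to 41.7 CPM in quiescent and 11.9 to 21.4 CPM in proliferating libraries, and the log2 fold change of 0.89 (SE 0.33, adjusted p = 0.0494) was close to the threshold. In Yme1l KO cells it stood at 0.38 (SE 0.05, adjusted p = 4.87e-05), without overlap of the groups. Poly-A selection keeps only part of these RNAs, so the values do not measure their amount in the cell.

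Among 10 tested regulators that are known to act on nuclear genes for mitochondria or on ribosome genes, 5 were lower and 1 higher in quiescent cells, where 35.5% of all genes tested were lower and 29.9% higher. In Yme1l KO cells 4 were lower and 2 higher, where 26.2% of all genes were lower and 25.4% higher. Myc, a growth factor-induced transcription factor, stood at -2.69 (SE 0.08, adjusted p = 5.19e-14) in quiescent and -0.25 (SE 0.05, adjusted p = 0.00115) in Yme1l KO cells. Pprc1, a growth-induced coactivator, stood at -1.20 (SE 0.06, adjusted p = 2.21e-11) in quiescent and -0.69 (SE 0.10, adjusted p = 0.000165) in Yme1l KO cells. Nrf1 stood at -0.86 (SE 0.07, adjusted p = 2.17e-08) in quiescent and -0.25 (SE 0.08, adjusted p = 0.0212) in Yme1l KO cells. Gabpb1 stood at -0.57 (adjusted p = 0.00451) in quiescent and -0.22 (adjusted p = 0.0436) in Yme1l KO cells. Max, Gabpa and Yy1 were called in neither comparison. Gabpa stood at 0.32 (adjusted p = 0.320) in quiescent and -0.05 (adjusted p = 0.462) in Yme1l KO cells. For Yy1 the values were 0.01 (adjusted p = 0.951) and 0.07 (adjusted p = 0.306) in the same order. Ppargc1a, a coactivator of mitochondrial biogenesis, rose in both, by 2.13 (SE 0.30, adjusted p = 1.12e-05) in quiescent and 0.70 (SE 0.07, adjusted p = 4.15e-06) in Yme1l KO cells. Ppargc1b, at low counts, stood at -1.92 (adjusted p = 0.000182) in quiescent and 0.70 (adjusted p = 0.124) in Yme1l KO cells. Esrra stood at 0.14 (adjusted p = 0.133) in quiescent and rose by 0.57 (adjusted p = 2.24e-05) in Yme1l KO cells.

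For scale, the cytosolic ribosomal protein genes fell as well. All 76 tested were lower in quiescent cells, with a median log2 fold change of -0.62, and 74 were lower in Yme1l KO cells, with a median of -0.31. Among all genes tested, 35.5% were lower in quiescent and 26.2% in Yme1l KO cells. They made up 8.51% ± 0.134 of all TPM in quiescent and 12.6% ± 0.274 in proliferating libraries (SD, n = 4 each). In Yme1l KO libraries they made up 9.10% ± 0.525, against 11.2% ± 0.192 in GFP control libraries (SD, n = 3 each). Whether the cytosolic and mitochondrial lists differ was not tested.

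**Figure D5:**
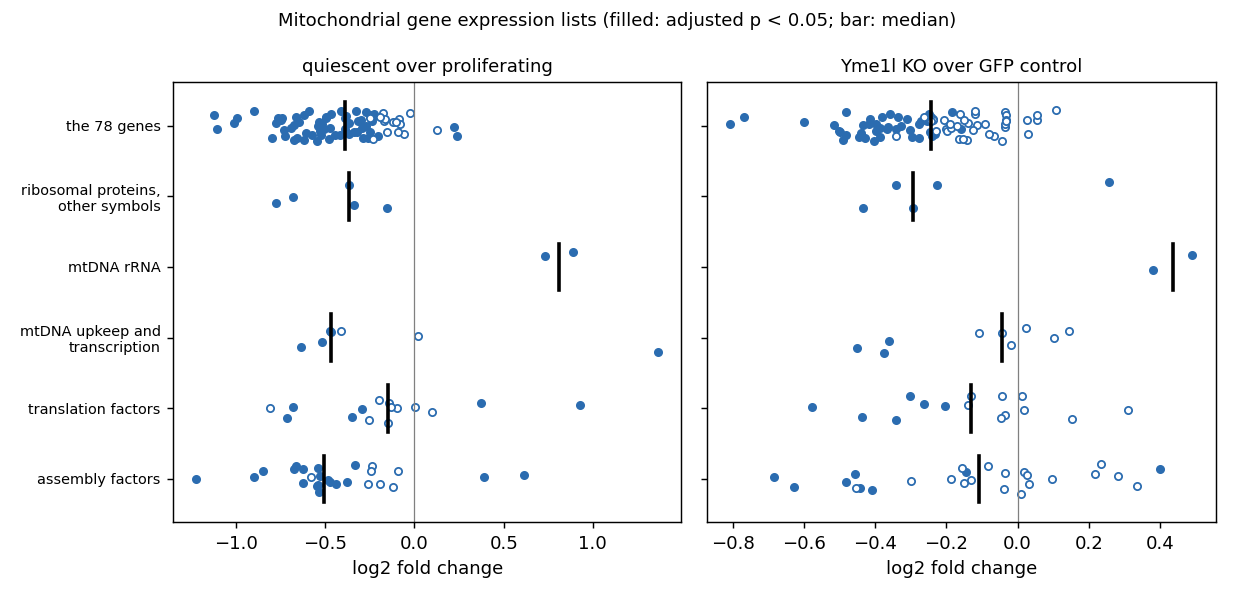
Log2 fold change (horizontal axes) of the 78 genes and of 5 lists of genes that work with them (vertical axis), quiescent over proliferating on the left and Yme1l KO over GFP control on the right. Each point is a gene, filled at an adjusted p under 0.05, and the bar is the median, such as -0.39 and -0.24 for the 78 genes; the mitochondrial ribosomal RNAs are the list whose median lies above 0 in both panels.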

How the data were processed

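The authors deposited estimated counts per gene and TPM from salmon (the tool named in the titles of the deposited tables) on GRCm39, in 1 set of tables for each pair of groups. They also deposited a table of log2 fold changes, p-values and adjusted p-values from DESeq2 1.30.1 in R 4.0.3, per the submitters' processing notes. The salmon version is not given in the sources used here. Estimated counts were rounded and tested with edgeR 4.0.16 (TMM scaling, filterByExpr, robust quasi-likelihood fit) within each pair, and in 1 fit of 4 groups for the difference of effects. P-values were adjusted over all tested genes by Benjamini-Hochberg and called under 0.05; SE is the log2 fold change over the root of F. CPM use TMM-scaled library sizes. All 78 members passed the filter. Totals per library limit precision as given in the report. Alternatives were RLE factors, library size alone, DESeq2 1.42.0, limma 3.58.1 on log2(TPM + 1), no filter, 1 CPM in every library of a group, counts scaled from TPM, a GC trend removed, a replicate block, all 14 libraries in 1 fit, and leaving out each library. The fits were tested on simulated data. No 2 replicates agreed within sampling noise (chi-square per degree of freedom 1.73 to 9.07).

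Per comparison, the text names the 12 deepest falls and up to 8 rises among called members with at least 5 CPM, up to 5 differences of effects in each direction, fixed members of known role, the 3 highest and 3 lowest in TPM, and members of companion lists. The members and lists were chosen with earlier results of these data known. Protein sequences were not used here. The authors' quiescence fold changes run proliferating over quiescent and were turned round; the same deposited table holds a mean normalised signal per gene, made by the authors over the libraries of a pair, which was not used.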

Additional observations from a re-analysis of the deposited data

Results flagged for a closer look

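Values of the named genes were screened within the groups of 4 libraries for a library far from the rest, over 42 sets of 4 values, of which chance alone marks about 1 in 20. Mrpl52 had 42.8 CPM in proliferating replicate 2, above the 37.5 to 38.0 CPM of the other proliferating libraries. Mrpl37 had 149 CPM in quiescent replicate 1, above the 137 to 139 CPM of the other quiescent libraries.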

How the results depend on the processing

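In the quiescent comparison the median log2 fold change of the 78 genes moved to -0.34 with RLE factors, -0.53 with library size alone, -0.34 with DESeq2, -0.36 with limma on log2(TPM + 1), -0.36 on counts scaled from TPM and -0.36 with the GC trend removed. With library size alone, 0 genes were higher, 2823 genes were called higher over the whole table, and the median of all genes shifted by -0.14. Relative to the median of all genes, the members' median stayed between -0.42 and -0.34 in that comparison and between -0.30 and -0.22 in the Yme1l KO comparison, over all alternatives run. Leaving out each library gave 48 to 59 lower, 2 to 3 higher and medians of -0.42 to -0.30 in the quiescent comparison, and 35 to 44 lower, 0 higher and medians of -0.27 to -0.22 in the Yme1l KO comparison. For the difference of effects, the count higher was 8 with RLE factors, 32 with library size alone, 7 with DESeq2 and 8 with the replicate block. Over all genes the counts higher were 2229, 4173, 2077 and 2215 in the same order. The members' count lower was 1 with limma on log2(TPM + 1), where 1754 of all genes were lower. The median was 0.0079 with RLE factors, 0.26 with library size alone, 0.0073 with DESeq2 and 0.052 on counts scaled from TPM, while the median of all genes shifted by -0.10 with RLE factors and 0.15 with library size alone. Leaving out each library gave 10 to 17 higher, 2 to 4 lower and medians of 0.054 to 0.14. Mrps18a in quiescent cells turned to 0.027 with the GC trend removed and 0.077 with the replicate block and the GC trend removed together, an alternative chosen after seeing the data, and leaving out each library gave -0.12 to 0.043. Mrps36 in Yme1l KO cells turned to 0.00193 with the GC trend removed and 0.00415 with block and GC trend, and leaving out each library gave -0.091 to 0.079. Of the values of single genes, 775 kept direction and side of the threshold, 27 lost a call, 14 gained one and 7 turned sign. The cause was not tested.

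Replicate numbers gave no sign of pairing: same-numbered deviations correlated at -0.18, -0.33 and -0.01 in the quiescent comparison. In the Yme1l KO comparison they correlated at 0.00, -0.06 and -0.01. Quiescent replicate 2 and proliferating replicate 1, unlike in number, correlated at 0.46. Other variation between libraries could hide pairing, so this check cannot exclude it. With the number as a block, 50 genes were lower and 2 higher in quiescent cells, 40 lower and 0 higher in Yme1l KO cells, and 8 higher and 3 lower for the difference of effects. The SE of a log2 fold change was highest for Mrpl1 (0.27), Mrpl47 (0.25) and Mrps18c (0.17) in the quiescent comparison, against a median of 0.08; these genes had means under 10 CPM in quiescent libraries, and the part of depth in their SE was not tested. Overlaps on the same strand with another protein-coding gene make Mrpl53, Mrps24, Mrps34 and Mrps6 uncertain.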

Other observations

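The pseudogene Mrpl48-ps had 16 to 45 reads in the quiescent libraries and 28 to 43 reads in the proliferating libraries, but at most 1 read in the Yme1l KO libraries and 0 in the GFP control libraries. Reads shared with its parent Mrpl48 cannot be told apart from its own.

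Several neighbours that start opposite a mitochondrial ribosomal protein gene changed far more than the member beside them. Eme1, a subunit of a nuclease for recombination, lies 197 bases from Mrpl27 and stood at -3.10 (log2 fold change, SE 0.25) in quiescent cells, beside -0.17 for Mrpl27. Ska3, of the kinetochore, lies 49 bases from Mrpl57 and stood at -2.24 (SE 0.22), beside -0.23. Ncapd2, of the condensin complex, lies 100 bases from Mrpl51 and stood at -2.15 (SE 0.05), beside -0.24. In Yme1l KO cells the same neighbours stood at -1.40, -1.03 and -0.91, beside -0.11, -0.34 and -0.24 for the members. These pairs were chosen after their values were seen, and the differences within pairs were not tested.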
